A study of Homo sapiens with 12 samples.

Results

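The 77 genes described here encode the proteins of the cytosolic ribosome. They were chosen by gene name (RPL, RPS, RPLP0 to RPLP2 and RPSA, with paralogs such as RPL22L1 left out) and by a level of 1 TPM or more in at least 2 libraries, TPM being the share of all transcripts, scaled for length and library. All 77 genes with such a name passed that filter, 46 of the large and 31 of the small subunit, out of 17185 genes that passed it in the series. They were measured in NS-SV-AC, an established line of human salivary gland acinar cells immortalised with SV40 genes. Polyadenylated RNA was sequenced in 12 libraries that formed 6 groups of 2 replicates. Every group was this same line, given DMSO as the solvent control, 2-CM (2′-C-methyladenosine, an adenosine analogue that blocks RNA synthesis by some polymerases, the mitochondrial one among them) or RES (resveratrol, a plant polyphenol). Each compound was applied 24 h ahead of transfection and once more with it. For 2-CM and RES the labelled dose was 20, read as micromolar, and for DMSO no dose is labelled. The transfection delivered either poly I:C, a double-stranded RNA made to mimic that of viruses and present for 14 h, or a control named depc in the labels. The labels do not say whether replicates were separate cultures, so every p-value measures only the spread between these libraries, which may be technical.

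Most ribosomal proteins are present once in each ribosome, and their genes are among the most strongly transcribed of any growing cell. Their mRNAs typically begin with a C followed by an unbroken run of pyrimidines, the 5′ terminal oligopyrimidine tract or TOP. Through the tract, mTOR and the RNA-binding protein LARP1 set their translation and stability together. Double-stranded RNA is known to act on ribosomes through the kinase PKR, which stops initiation, and through RNase L, which cuts ribosomal RNA.

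The tract was visible in the promoters of most members. RefSeq promoters (GRCh38.p14, 250 bases before to 50 after the start) were found for 62 of the 77 genes, as 77 entries. A tract, searched on the transcribed strand as C followed by at least 4 bases that are C or T, began within 10 bases of the annotated start in 83.1% of member promoters and in 33.5% of all 35116. At the first transcribed base itself it stood in 59.7% of member promoters and 4.07% of all. The windows below run from 30 bases before the start to base 20 of the transcript for genes whose levels are described further on, with the tract in capitals. RPS29 and RPL27 are shown because no tract began within 10 bases of their annotated start; pyrimidine runs farther off in their windows lie outside that search.

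RPS13 (GRCh38.p14, chr11:17077648-17077697, minus strand): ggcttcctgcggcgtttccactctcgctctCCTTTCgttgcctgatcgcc
RPL38 (GRCh38.p14, chr17:74203648-74203697, plus strand): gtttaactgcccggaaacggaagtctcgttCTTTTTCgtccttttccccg
RPS29 (GRCh38.p14, chr14:49598691-49598740, minus strand): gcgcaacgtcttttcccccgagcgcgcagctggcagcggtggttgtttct
RPL27 (GRCh38.p14, chr17:42998389-42998438, plus strand): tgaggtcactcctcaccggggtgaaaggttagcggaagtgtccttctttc
RPL34 (GRCh38.p14, chr4:108620546-108620595, plus strand): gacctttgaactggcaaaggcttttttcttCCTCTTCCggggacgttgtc
RPL13 (GRCh38.p14, chr16:89560652-89560701, plus strand): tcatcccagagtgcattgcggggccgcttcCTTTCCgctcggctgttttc
RPS9 (GRCh38.p14, chr19:54200828-54200877, plus strand): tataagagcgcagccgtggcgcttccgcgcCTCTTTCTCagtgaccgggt

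A second sequence feature that varied among the members was base composition. The GC content of their transcripts ran from 40.5% for RPL7 to 62.8% for RPS15, with medians of 49.5% for the large and 49.7% for the small subunit and 49.2% over all kept genes. The range shows in stretches of 90 coding bases from RPS3A, second lowest at 42.5% over its transcripts, and RPS15, given here from hg38 and GENCODE 44 with G and C in capitals. Of the 90 bases, 35 were G or C in RPS3A and 64 in RPS15. Changes in level followed this content across the members, as given below.

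RPS3A (hg38, chr4:151102871-151102960, plus strand, exon 4): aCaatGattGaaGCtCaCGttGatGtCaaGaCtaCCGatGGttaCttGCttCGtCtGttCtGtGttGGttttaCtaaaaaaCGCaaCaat
RPS15 (hg38, chr19:1440019-1440108, plus strand, exon 3): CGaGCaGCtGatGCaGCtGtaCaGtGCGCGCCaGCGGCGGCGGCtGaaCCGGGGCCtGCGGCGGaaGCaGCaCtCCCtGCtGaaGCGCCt

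The libraries held 31.2 to 49.4 M reads, estimated from coverage, and no table of counts was used. Of the marker genes examined, 2 of 11 salivary acinar markers reached a TPM of 1 in at least 2 libraries (SLC12A2 and BHLHA15), while the defining acinar genes AQP5, MUC7 and STATH were at 0 in all 12. Of 6 epithelial genes 4 reached that level: KRT8 and KRT18 had medians of 1038 and 668 TPM, KRT7 and EPCAM of 1.16 and 0.322, while KRT19 and CDH1 were under a TPM of 1 in every library. Among markers of other cells, 3 of 4 fibroblast genes, 1 of 4 basal or myoepithelial genes (ACTA2) and 1 of 5 immune genes (CD14) reached that level. Fewer copies per cell and a larger pool of other mRNA cannot be told apart in these values, because TPM is a share of the library.

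Together the 77 genes took 10.9% to 15.1% of all TPM. The share was 12.2% ± 0.187 (SD, n = 2) for DMSO depc and 13.8% ± 0.403 for DMSO poly I:C. Under 2-CM it was 14.6% ± 0.628 with depc and 11.9% ± 0.0665 with poly I:C, and under RES 11.3% ± 0.166 and 10.9% ± 0.0855. The poly I:C libraries therefore lay above the depc libraries under DMSO and below them under 2-CM and RES, without overlap in each case. The order under DMSO and 2-CM was the same in TPM without mitochondrial genes and in estimated reads, but that under RES was not: without mitochondrial genes the share was 15.6% and 16.8% with depc and 16.9% and 16.5% with poly I:C, and of estimated reads it was 6.09% and 6.98% against 6.90% and 6.44%, so the RES libraries overlapped on both. The ratio of summed large to small subunit TPM lay between 1.37 and 1.59 in all 12 libraries. Under DMSO it was lower with poly I:C, at 1.40 and 1.38 against 1.46 and 1.52 with depc, under RES it was higher, at 1.42 and 1.44 against 1.40 and 1.37, and under 2-CM the libraries overlapped, at 1.49 and 1.49 against 1.46 and 1.59. No test was made of these sums.

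**Figure D1:**
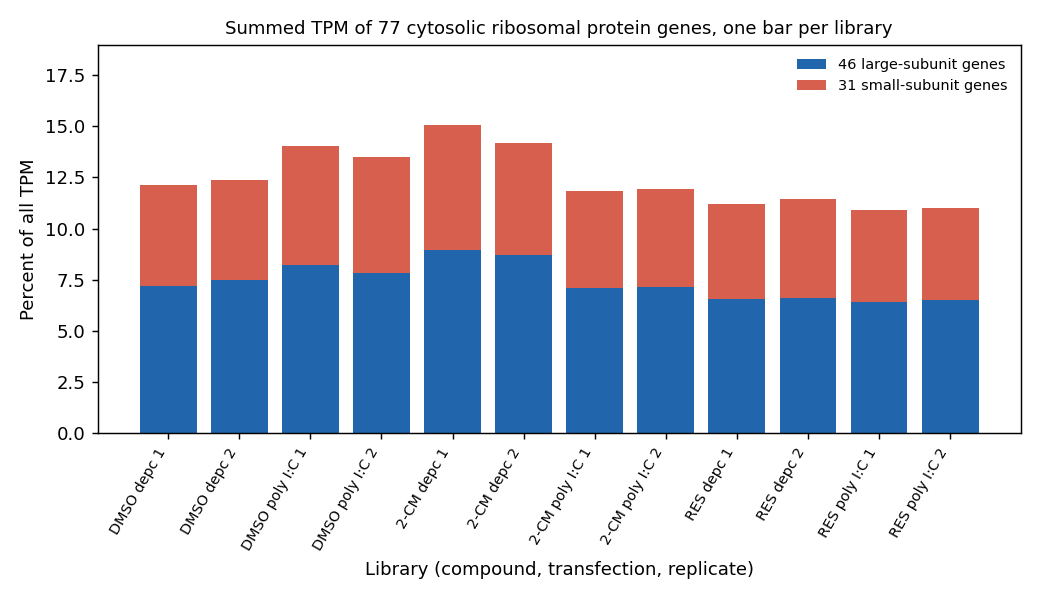
Percent of all TPM taken by the 46 large-subunit genes (blue) and 31 small-subunit genes (red) in each of the 12 libraries. The 2-CM depc libraries reach 15.1% and 14.2%, the highest of all, and the lowest, 10.9%, is RES poly I:C replicate 1.

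Within the set, mean levels over the 12 libraries spanned from 64.01 TPM for RPS9 to 4664 TPM for RPS16, with 52 members at 1000 TPM or more and 46 among the 100 highest genes of all. The highest were RPS16, a protein of the 40S head, at 4664 TPM, RPLP0, the base of the ribosomal stalk that recruits translation factors, at 4117, RPL13 at 3787, RPS2, which lines the mRNA entry channel, at 3690, and RPL35, at the exit of the peptide tunnel, at 3673. The lowest were RPS9 at 64.01, a level that could not be checked against reads placed elsewhere, RPL22 at 190, RPL21 at 206, RPS26 at 221 and RPS18 at 304. TPM is per length, so the order of these levels depends on the transcripts and lengths assigned to each gene, which was not tested. RPL39, for example, had a mean of 2717 TPM and RPL37 of 745, although RPL37 had more estimated reads in every library. For some genes the level is also shared with near-identical copies. In all, 1132 pseudogenes carry the name of a member and 167 passed the filter. For 11 members the pseudogenes summed to over 20% of the gene's own level: RPL7, RPL9, RPL15, RPL21, RPL22, RPL41, RPS2, RPS7, RPS18, RPS26 and RPS28. The pseudogene RPL41P1 (chromosome 20) was listed at a mean of 2424 TPM beside 1985 for RPL41, and RPS18P12 (chromosome 17) at 728 beside 304 for RPS18, so the levels of these 11 genes are uncertain. In addition, 28 members host 59 small nucleolar RNA genes inside their bounds, and 12 members lie on chromosome 19.

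Variation across the 12 libraries differed between members. The highest library was less than 2 times the lowest for 22 members and 3 times or more for 23, with a median of 2.34. In TPM, RPL37A, a zinc-binding protein of the large subunit, varied least, by 1.30-fold over all 12 libraries. RPL12 and RPL3 followed, both at 1.36-fold. This order depends on the scale. In estimated reads scaled to library size, RPL37A ran from 650 to 1245 and RPL12 from 830 to 1178. In the authors' deposited table, RPL37A had a log2 fold change of poly I:C over depc of −1.21 under 2-CM. The median SD between replicates was 0.30 on the log2(TPM + 1) scale, against 0.32 over all kept genes. RPS18 varied most. It was listed at 352 and 396 TPM in DMSO depc, 371 and 380 in DMSO poly I:C, 551 and 400 in 2-CM depc, 302 and 321 in 2-CM poly I:C, 144 and 184 in RES depc, and 240 and 5.66 in RES poly I:C. A single library, RES poly I:C replicate 2, accounted for the low end, while RPS18P12 was at 473 TPM there. RPL9, of the large subunit, was next, at 724 TPM in RES depc replicate 1 against 123 in replicate 2. The share of the transcript that led RPL9 overall ran from 0 to 94.6% of the gene between libraries. A shift of 25 points or more in the leading transcript's share between replicates of a group was found in 30 members.

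**Figure D2:**
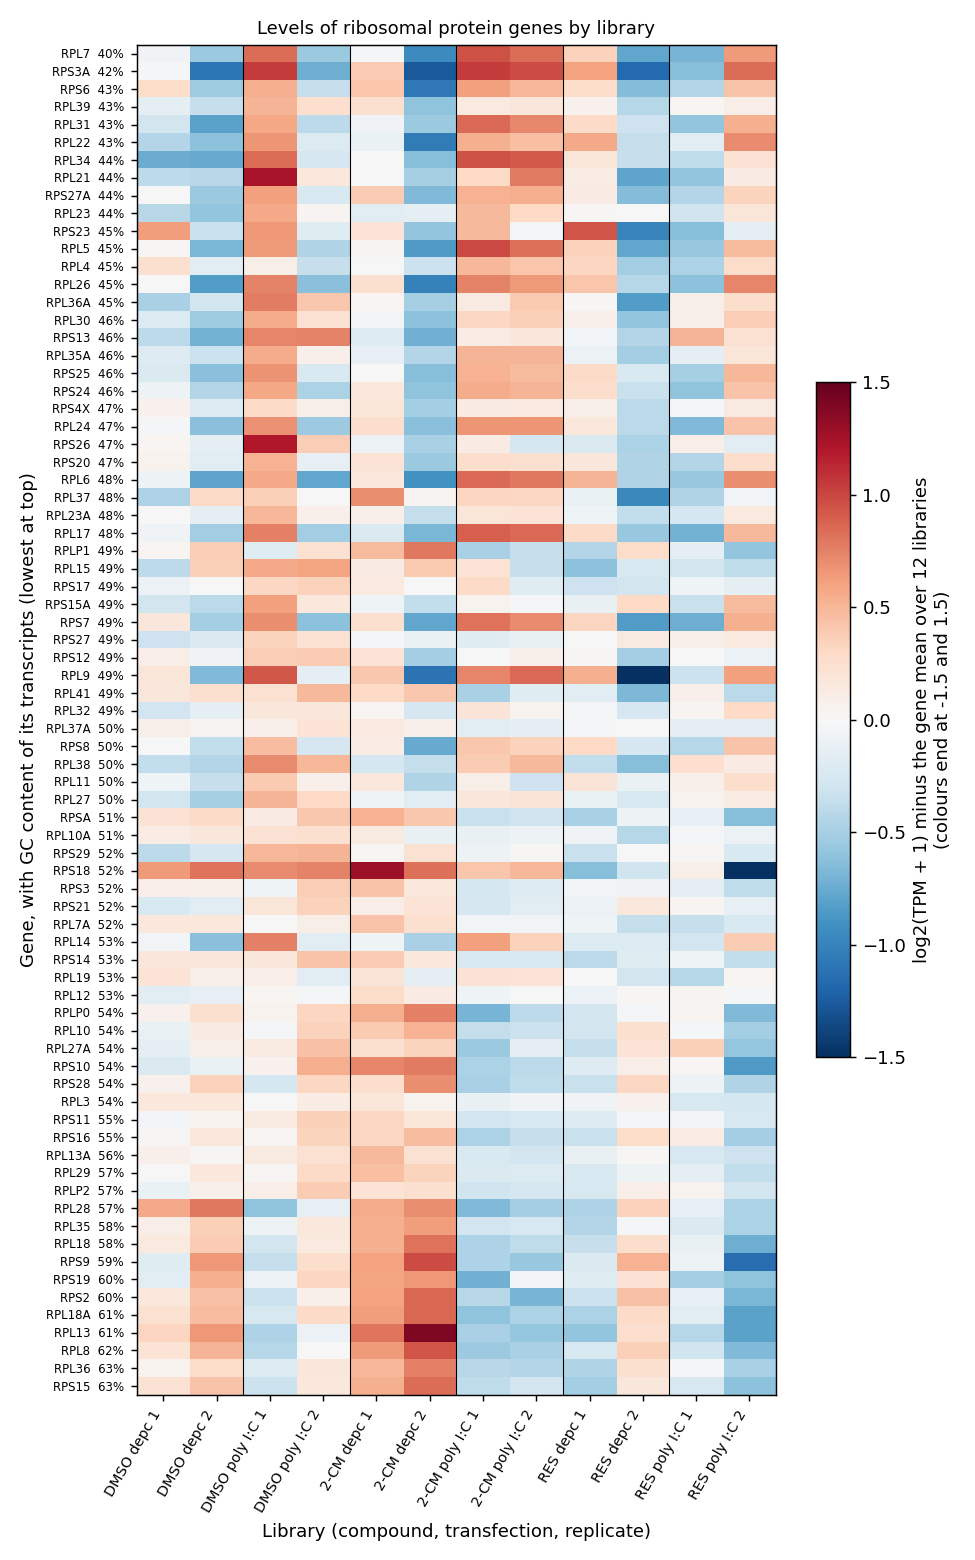
Each row is a named ribosomal protein gene of the set, all but 1 of the 77, ordered by the GC content of its transcripts from 40% at the top to 63% at the bottom. Each column is a library, and colour is log2(TPM + 1) minus the gene's mean over the 12 libraries, with red higher and blue lower. Both 2-CM poly I:C columns are red at the top and blue at the bottom, both 2-CM depc columns show more red at the bottom, and the replicates of DMSO poly I:C, RES depc and RES poly I:C differ at the top.

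In cells given DMSO, poly I:C was set against depc, which gives the response without a compound. Of the 77 members, 5 rose at a limma adjusted p under 0.05 (the criterion for a call throughout) and none fell; of all 17185 genes, 0.797% were called higher and 3.28% lower. The 5 were RPS13, RPL38, RPS29, RPL27 and RPS27, so 2 of 46 large-subunit and 3 of 31 small-subunit genes. The median log2 fold change of the members was 0.27 (0.15 to 0.38 when 1 library was left out), with 59 above 0, against −0.14 over all genes. In 31 members both poly I:C libraries lay above both depc libraries, and in 8 both lay below, where 11.5% and 33.4% of all genes did so.

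RPS13, a protein of the small subunit, lies on chromosome 11 (17074388 to 17077715, minus strand, hg38). It was at 1193 and 960 TPM in DMSO depc and at 2594 and 2610 TPM in DMSO poly I:C. The poly I:C libraries were thus more than 2 times the depc ones with no overlap, at a log2 fold change of 1.28 ± 0.21 (SE, limma adjusted p = 0.0228). RPL38, a small protein of the large subunit whose loss disturbs the translation of Hox mRNAs in mice, was at 942 and 895 TPM and then at 1981 and 1714. Again the groups stood apart, by a log2 fold change of 1.00 ± 0.14 (limma adjusted p = 0.0125). RPS29, a zinc-binding protein of the 40S head, was at 905 and 992 TPM in DMSO depc, against 1667 and 1692 in DMSO poly I:C (log2 fold change 0.83 ± 0.16, limma adjusted p = 0.0318). Reads of RPS29 may be shared with RN7SL1, an abundant RNA gene that overlaps it on the other strand. RPL27 and RPS27 had log2 fold changes of 0.79 and 0.54.

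These calls rest on few libraries and on the scaling. With TPM rescaled by the upper quartile or by median ratios, limma called 0 of 77, where 0.803% and 0.739% of all genes were called. At an unadjusted p under 0.05 there were 18 and 17 members, beside 2650 and 2572 of all 17185 genes. The member median was nevertheless larger, at 0.43 by median ratios. Leaving out either DMSO depc library or DMSO poly I:C replicate 1 also left 0 calls, and leaving out DMSO poly I:C replicate 2 or either 2-CM poly I:C library left 1, and without either 2-CM depc library 2 were left. Calls over all genes fell in the same fits, from 4.08% to between 0.145% and 0.832%. In the authors' deposited table of the same comparison, RPS13 alone of the members was called, at a log2 fold change of 1.45, and the member median was 0.50, with 0.751% of the table's genes called higher.

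**Figure D3:**
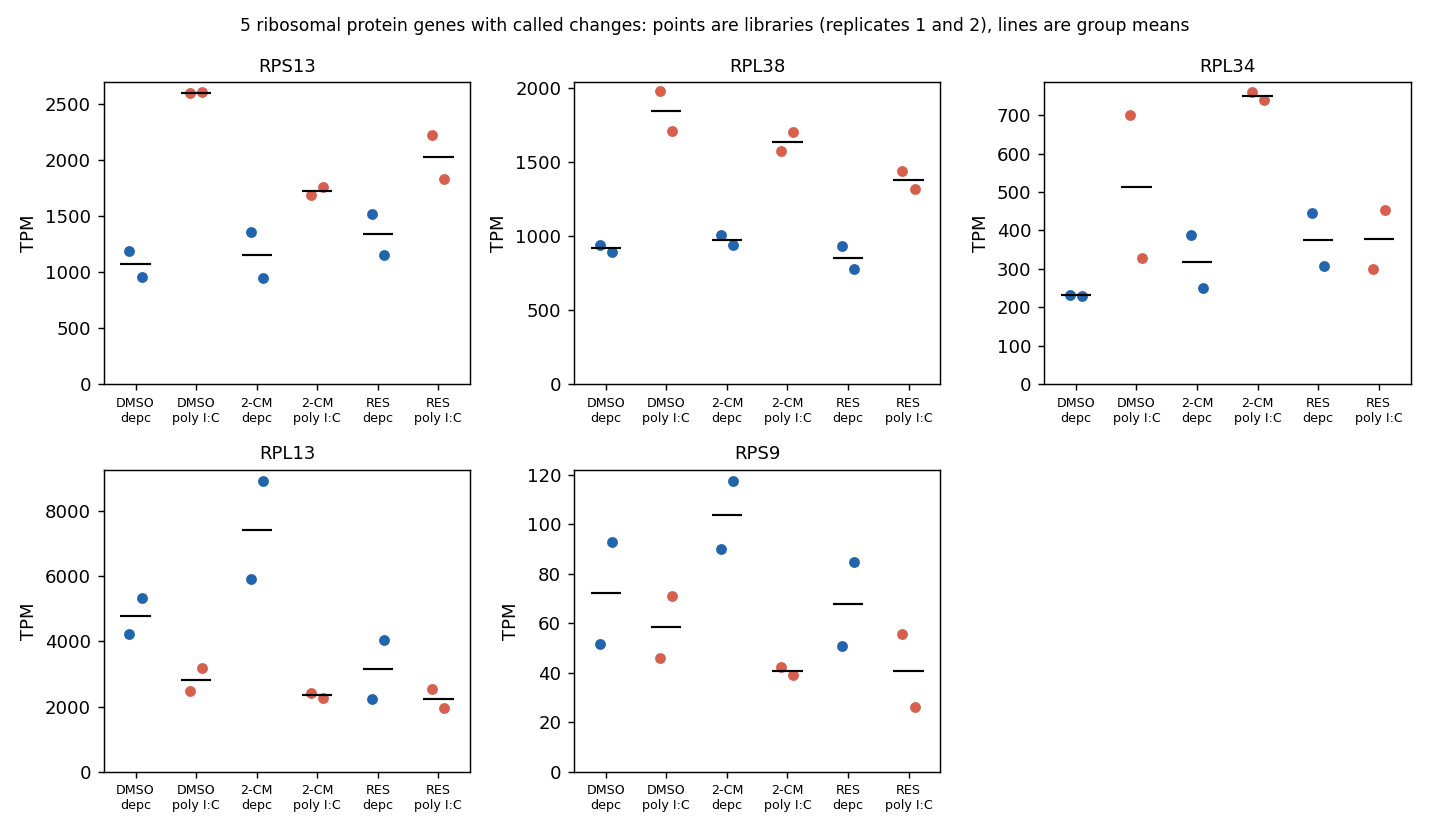
TPM of RPS13, RPL38, RPL34, RPL13 and RPS9 in every library, with depc in blue, poly I:C in red and a line at each group mean; every vertical axis starts at 0. RPS13 and RPL38 are higher in TPM with poly I:C in all 3 compound groups without overlap, and RPL13 and RPS9 are lowest or close to lowest in the 2-CM poly I:C libraries.

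The same comparison in cells given 2-CM gave the most calls among the members, and in both directions. Of 77 members, 27 fell and 4 rose, whereas 11.8% of all genes were called lower and 37.5% higher. The member median was −0.01 against a median of 0.61 over all genes (−0.12 to 0.28 for the members when 1 library was left out), so relative to that shift the ribosomal protein genes stood lower. Of the large subunit 15 of 46 fell and 3 rose, and of the small subunit 12 of 31 fell and 1 rose. In 35 members both poly I:C libraries were below both depc libraries, and in 32 both were above, where 23.9% and 62.6% of all genes did so.

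Among the genes that fell, RPL13 (chromosome 16, 89560657 to 89566828, plus strand), a protein of the large subunit, had the largest change. It was at 5923 and 8907 TPM in 2-CM depc and 2423 and 2261 in 2-CM poly I:C. The groups were far apart, although the depc replicates were far from each other as well (log2 fold change −1.63 ± 0.30, limma adjusted p = 0.024). RPS9, which lines the mRNA entry channel with RPS2, was at 90.02 and 118 TPM and then 42.4 and 39.3, a log2 fold change of −1.31 ± 0.43 (limma adjusted p = 0.0369), at an uncertain level far below that of its partners.

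Of the genes that rose, RPL34 (chromosome 4, 108620566 to 108630412, plus strand), a protein of the large subunit, was at 388 and 249 TPM in the depc libraries and 759 and 739 in the poly I:C libraries. Its groups did not overlap and gave a log2 fold change of 1.26 ± 0.37 (limma adjusted p = 0.0315). RPL35A, a large-subunit protein mutated in some cases of Diamond-Blackfan anaemia, rose by 0.79, RPL38 by 0.75 and RPS13 by 0.60. The median of all genes was 0.61, so RPL34 stood furthest above it and RPS13 just under it. All but RPL34 turned negative when TPM was rescaled by median ratios: RPL35A to −0.06, RPL38 to −0.10 and RPS13 to −0.25. By median ratios 0 members rose and 35 fell, where 20.3% and 23.5% of all genes did, and by the upper quartile 0 rose and 33 fell, where 24.3% and 19.8% did. The member medians were then −0.86 and −0.64. The calls of members did not hold when any 1 of the 4 libraries of this comparison was left out. Few of all genes were called there either. With no filter on low values 1 member was called, where 1.61% of all genes were. In the fit of all 12 libraries, 41 members had an unadjusted limma p under 0.05, beside 10460 of all 17185 genes.

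The calls in 2-CM cells were next read by functional group, beside the 11.8% of all genes that fell and 37.5% that rose. All 3 stalk proteins fell: RPLP0 by 1.19, RPLP1 by 1.05 and RPLP2 by 0.49 on the log2 scale. Of the 14 proteins of the 40S head, 7 fell, among them RPS3, RPS15 and RPS19, and none rose. RPS2 and RPS9 of the decoding and mRNA channel group fell by 1.29 and 1.31, while RPS23 of the same group had a log2 fold change of 0.42 that was not called. Of the 8 proteins of the ring around the peptide exit only RPL35 fell, by 0.84, and the other 7 had positive values that were not called, up to 1.32 for RPL17. RPL5 and RPL11, which carry 5S ribosomal RNA into the large subunit and bind MDM2, were not called, at 1.31 and 0.04. Near the peptidyl transferase centre, RPL8 and RPL10 fell by 1.31 and 0.80, RPL3 had −0.20 and RPL4 had 0.62. On the 40S platform RPS14 fell by 0.51, with RPS26 at 0.21 and RPS3A at 1.45 not called.

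Members that fell, rose or were not called under 2-CM also differed in GC content. Members that fell had a median GC content of 56.6%, from 48.6% to 62.8%, those that rose 45.9%, and those not called 47.9%. Of the 26 members with the highest GC content 22 fell, and of the 25 in the middle 5 fell. Of the 26 with the lowest none fell. Of all genes, whatever their GC content, 11.8% fell. With GC content corrected, 15, 8 and 5 members fell in the same order, where 14.9% of all genes did. Over the 77 genes, Spearman's rho between GC content and the poly I:C log2 fold change was −0.85 in 2-CM cells, −0.70 in DMSO cells and −0.65 in RES cells. These points share the same libraries, and genes are not independent replicates. Differences between replicates of a group followed GC content as well, with rho of −0.71, −0.82, −0.77, −0.39 and −0.82 for replicate 1 minus replicate 2 in DMSO depc, DMSO poly I:C, 2-CM depc, 2-CM poly I:C and RES depc, and 0.75 in RES poly I:C. A fit with GC content corrected is given below.

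**Figure D4:**
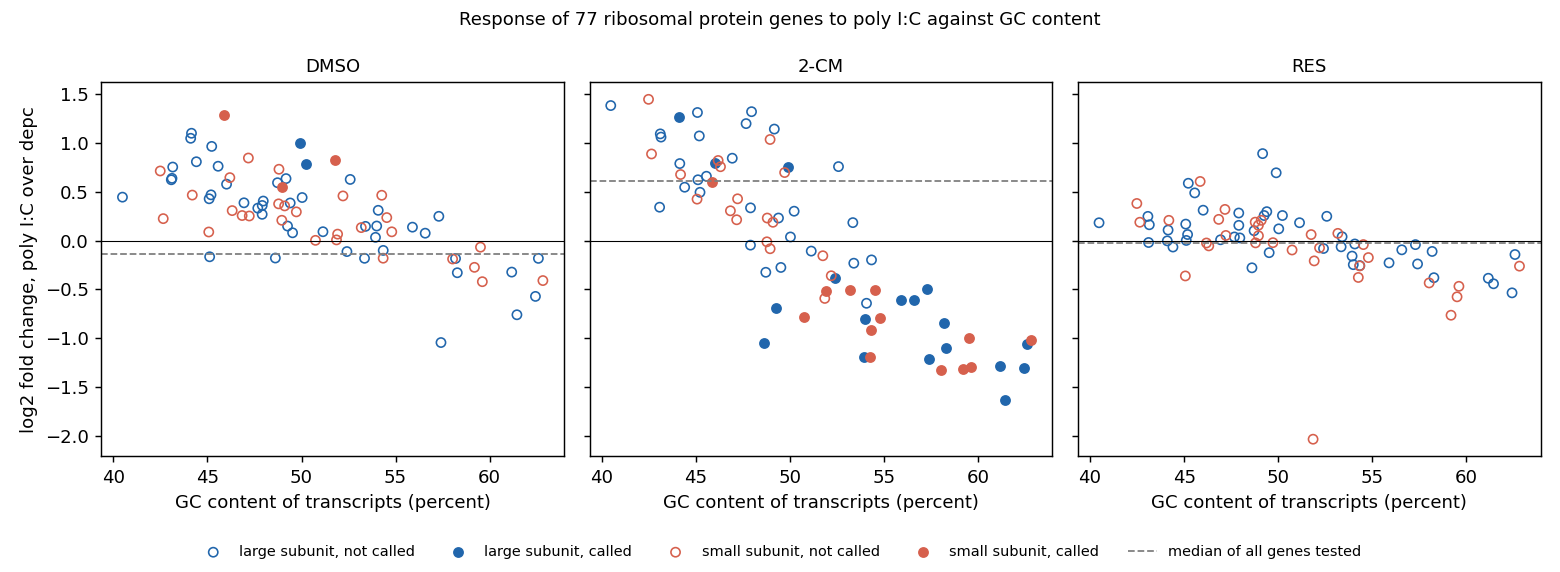
Log2 fold change of poly I:C over depc against the GC content of transcripts, for 77 genes under DMSO, 2-CM and RES. Filled points are called by limma, blue is the large and red the small subunit, and the dashed line is the median of all genes tested. Values fall with GC content in each panel, and under 2-CM the filled points below 0 lie at 48.6% GC or more.

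When the median deviation of all genes of like GC content was subtracted in each library, the members as a whole stayed below other genes under 2-CM. In that corrected fit 28 members fell and none rose, where 14.9% of all genes fell and 13.9% rose, and the member median was −0.56 with 69 of 77 below 0. Of the 27 genes that fell without the correction, 20 did so with it. RPLP1 then had the largest change, −1.79, followed by RPL41 at −1.29 and RPL39 at −1.21, and the stalk protein RPLP0 was at −1.20. Read by functional group, 7 of the 8 exit-ring proteins lay below 0 (median −0.36, 2 called lower), as did all 14 of the 40S head (median −0.73, 5 called lower) and all 3 of the decoding and mRNA channel group (−0.87 to −0.81, 1 called lower), and 2 of the 3 stalk proteins were called lower. RPL34, RPL35A and RPS13, which rose in TPM, had corrected values of −0.11, −0.28 and −0.47, and RPL38 had 0.15. For DMSO the corrected fit called 12 members higher and none lower, where 8.12% of all genes were higher and 9.04% lower. Those 12 were RPL21, RPL22, RPL27, RPL30, RPL34, RPL36A, RPL38, RPLP2, RPS13, RPS21, RPS26 and RPS29, of which RPS13 had the largest corrected change, 1.23. RPL21, RPL22 and RPS26 are among those with abundant pseudogenes.

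The authors' deposited table for 2-CM called 51 members lower and 1 higher, RPL17, where 23.5% of the table's genes were lower and 23% higher. All 27 that fell here were among the 51. In that table RPL13 had a log2 fold change of −2.10 and RPS9 of −2.19, and the member median was −0.84 against 0.08 over the table's genes.

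In cells given RES, 0 of 77 members were called by limma, where 0.198% of all genes were called higher and 0.244% lower. At an unadjusted p under 0.05 there were 3 members, beside 2409 of all 17185 genes. No member was called in the authors' deposited table either, where 0.266% of its genes were higher and 0.0975% lower. The member median was −0.003 (−0.07 to 0.17 when 1 library was left out) and that of all genes −0.03. RPS18 had the largest change in this comparison, −2.03 ± 1.25, which rested on the library at 5.66 TPM. With RES poly I:C replicate 1 left out it was called, as the single member, but that fit rests on the library at 5.66 TPM alone and assumes that it varies like the other groups. RPL9 was next, at 0.89 ± 0.82. RPL38, at 937 and 778 TPM with depc and 1443 and 1322 with poly I:C, had a log2 fold change of 0.69 ± 0.14 that missed the criterion (limma adjusted p = 0.0904).

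Across all 3 compounds, 6 members had both poly I:C libraries above both depc libraries each time: RPL27, RPL30, RPL32, RPL36A, RPL38 and RPS13, where 3.14% of all genes did so. Under 2-CM this order depends on the scale: in the authors' deposited table all 6 had negative log2 fold changes there, −0.52 for RPL27 and −0.84 for RPL32, both called lower, and −0.27 to −0.07 for the others. RPL36A, a large-subunit protein encoded on the X chromosome, was at 1209 and 1394 TPM against 2877 and 2231 under DMSO, 1726 and 1201 against 1851 and 2224 under 2-CM, and 1709 and 947 against 1798 and 2032 under RES. Of the members, RPL3 and RPL8, from the peptidyl transferase side of the large subunit, were the 2 that were lower in TPM each time, where 12.6% of all genes were. RPL3 moved little in TPM, from 1856 and 1848 to 1666 and 1790 under DMSO, and its log2 fold changes of −0.10, −0.20 and −0.26 were not called. This too depends on the scale. In the authors' deposited table RPL3 had 0.12 under DMSO, −1.05 under 2-CM, where it was called lower, and −0.24 under RES. RPL8 was negative there under all 3 compounds. In estimated reads scaled to library size, the DMSO libraries overlapped for both genes. Those of RPL3 were at 1588 and 1675 with depc and 1549 and 1856 with poly I:C.

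The compounds were then compared with DMSO within each transfection. With depc, 0 members were called for 2-CM, where 0.0349% of all genes were called. An unadjusted p under 0.05 was found for 5 members and for 831 of all 17185 genes. Even so, 57 of 77 members were above 0 and the member median was 0.15 against −0.12 over all genes. That median was 0.02 without 2-CM depc replicate 1 and 0.30 without replicate 2. RPS10, a 40S head protein that contacts the mRNA entry side, was at 1362 and 1472 TPM in DMSO depc and 2634 and 2710 in 2-CM depc, a log2 fold change of 0.92 ± 0.27 (limma adjusted p = 0.721). RPS10 is read through into NUDT3 in an annotated transcript, which leaves its level uncertain. RPL13 had 0.62 ± 0.30. With poly I:C, 0 members were called for 2-CM, where 0.105% of all genes were called. An unadjusted p under 0.05 was found for 19 members and for 5884 of all 17185 genes. Here the member median was −0.26 and that of all genes 0.59. Over the alternatives other than leaving out a library, the member median ran from −1.04 to −0.25. The largest values were 0.93 ± 0.59 for RPL6 and −0.86 ± 0.28 for RPS26.

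For RES with depc, 0 members were called, where 1.03% of all genes were called. An unadjusted p under 0.05 was found for 9 members and for 2524 of all 17185 genes. The member median was −0.09 against 0.15 over all genes. The largest values were −1.19 ± 1.25 for RPS18 and −0.74 ± 0.27 for RPL28, a large-subunit protein whose gene overlaps UBE2S on the other strand. With poly I:C, 0 members were called for RES, where 0.157% of all genes were called. An unadjusted p under 0.05 was found for 20 members and for 2296 of all 17185 genes. All the same, 71 of 77 members were below 0, all 31 of the small subunit among them, with a median of −0.32 against 0.28 over all genes. In this comparison 31 members had both RES libraries below both DMSO libraries and none had both above, where 7.04% and 28.3% of all genes did so. The largest values were −3.23 ± 1.25 for RPS18, which rested on the library at 5.66 TPM, and −0.93 ± 0.43 for RPL21, one of the members with abundant pseudogenes. RPL15, the next, was at 2185 and 2234 TPM in DMSO poly I:C and 1217 and 1139 in RES poly I:C (log2 fold change −0.91 ± 0.27, limma adjusted p = 0.194). After the GC correction, 25 members were lower with 2-CM than with DMSO under poly I:C, where 3.75% of all genes were, 12 were lower with RES under poly I:C, where 4.09% were, and 8 were lower with RES under depc, where 6.63% were. RPS26, another member with abundant pseudogenes, had a corrected value of −1.57 for 2-CM and −1.07 for RES, both with poly I:C. RPL38 had −0.68 and −0.65, and RPS13 had −1.34 for 2-CM.

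Whether the poly I:C response differed between compounds was tested directly. For 2-CM minus DMSO 0 members were called by limma, where 0.0116% of all genes were called. At an unadjusted p under 0.05 there were 24 members, beside 5097 of all 17185 genes. The member median was −0.38, against 0.68 over all genes. It ran from −1.39 to −0.38 over the alternatives other than leaving out a library. RPS10 had the most negative difference, −1.66 ± 0.38, followed by RPLP0 at −1.22 ± 0.33 (limma adjusted p = 0.161 for both). RPS10 was at 1649 and 2315 TPM in DMSO poly I:C and at 1141 and 1191 in 2-CM poly I:C, from the depc levels given above. For RES minus DMSO 0 members were called, where 0% of all genes were called. Of the 77 members 64 were below 0, with a median of −0.27 against 0.11 over all genes. At an unadjusted p under 0.05 there were 5 members, beside 293 of all 17185 genes. The largest values of this difference were −2.04 ± 1.77 for RPS18 and −1.05 ± 0.53 for RPL34. These differences share their DMSO libraries with the comparisons above.

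Genes around the ribosome were read from lists, whose counts stand beside 0.797% of all genes called higher and 3.28% lower under DMSO, and 37.5% higher and 11.8% lower under 2-CM. Calls of a fall under DMSO depend on the scaling. Over all genes they dropped to 0.169% by median ratios, 0.215% with FPKM and 0.0291% with the length correction. The listed genes were not read in those fits, so their falls under DMSO are not known to hold there. Of 10 ribosomal proteins and paralogs outside the name rule, none was called under DMSO. Under 2-CM, FAU, which encodes a ribosomal protein fused to a ubiquitin-like protein, fell by 1.11, while RPL7L1, RPL26L1, RPL36AL and RPS27L rose by 1.81, 1.72, 1.09 and 1.80. Of 18 other mRNAs known to carry a TOP, 1 fell under DMSO, the elongation factor gene EEF2, from 1150 and 1231 TPM to 510 and 674 (log2 fold change −1.02 ± 0.20, limma adjusted p = 0.0335). Under 2-CM 5 of the 18 rose and 5 fell. EEF2, EEF1D, EEF1G and RACK1, with GC contents of 54.4% to 61.2%, fell by 1.28, 1.23, 1.07 and 1.00, and EIF3F, at 40.02%, fell by 0.53, while EIF3E, PABPC1, NPM1, HNRNPA1 and NAP1L1, at 37.2% to 46.1%, rose by 1.22 to 2.19.

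Of 26 ribosome assembly genes, 1 rose under DMSO, NOP10, of the snoRNP that modifies ribosomal RNA, by 0.96, and 2 fell, BOP1 by 1.27 and POLR1A, the large subunit of RNA polymerase I, by 1.05. Under 2-CM 14 rose and 4 fell. Of 13 genes of the mTOR and LARP1 pathway that controls TOP mRNAs, 4 fell under DMSO: LARP1 by 0.85, MTOR by 1.13, RPTOR by 1.21 and TSC2 by 1.10. Under 2-CM 4 rose and 5 fell. No gene of these lists was called under RES. Of the 167 named pseudogenes tested, 1 rose under DMSO, and 19 rose and 20 fell under 2-CM, where 37.5% and 11.8% of all genes did; the share that fell was near that of all genes.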

How the data were processed

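Polyadenylated RNA of 12 libraries was read as stranded 101-base pairs. Per the submitters' processing notes, reads were handled with bcl2fastq 2.20 and HISAT2 2.1.0 on hg38, StringTie and DESeq2. Per the file headers, StringTie 2.0.4 with GENCODE 32 wrote coverage, FPKM and TPM per transcript, with no strand setting recorded. For each compound the authors deposited a table comparing poly I:C with depc, holding a mean normalised count signal, log2 fold change and its standard error, test score, p-value and adjusted p-value; the libraries fitted are not given in the sources used here.

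Transcript TPM was summed per gene (Python 3.11.15). Reads were estimated from coverage, which took the place of counts. Genes with a TPM of 1 or more in 2 libraries were kept, and limma 3.58.1 (R 4.3.3) fitted 6 group means to log2(TPM + 1) with a variance trend and 6 residual degrees of freedom; this scale understates changes of low genes. A call is a Benjamini-Hochberg adjusted p under 0.05 over all 17185 genes, and all adjusted p-values not ascribed to the authors are from limma. The fit was tested on simulated data. GC content came from GENCODE 44 transcripts (16732 kept genes), corrected in 20 bins. Only transcripts with the same identifier and length as in the deposited files entered it, weighted by their mean TPM.

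The members, lists and tests were chosen with earlier results of these data known. Members named were, per comparison and direction, the 3 called with the largest change (with no call, the 2 largest), the 5 highest and 5 lowest mean levels and listed functional groups; others named were chosen after their values were seen, and single results of some genes are not reported here. Alternatives were FPKM, other scalings, filters, pseudocount, estimated reads, GC, length, the replicate block, fitting the compared groups alone, leaving out each library and, added after seeing the files, members summed with their pseudogenes.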

Additional observations from a re-analysis of the deposited data

How the results depend on the processing

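Counts of called members under DMSO moved from 5 to 3 with FPKM (0.727% of all genes called), 0 with upper-quartile scaling, 0 with median ratios, 12 with the GC correction, 2 with the length correction (0.512%) and 0 with only the groups compared fitted (0.0349%). Under 2-CM they moved from 31 to 1 with no filter on low values (1.61% of all genes) and to 50 (20 higher, 30 lower) with only the groups compared, where 52.5% of all genes were higher and 16.4% lower. The GC correction moved 2-CM against DMSO with poly I:C from 0 to 25, RES against DMSO with depc from 0 to 8 and RES against DMSO with poly I:C from 0 to 12. Leaving out single libraries gave 0 to 7 under DMSO (0.145% to 5.28% of all genes called), 0 to 36 under 2-CM (0.215% to 59.1%), and 0 to 1 under RES, for RES against DMSO with poly I:C and for the difference of response of RES; the 1 was RPS18, without RES poly I:C replicate 1. It gave 0 to 0 for the other comparisons. Leaving out 1 of the 2 libraries of a group assumes that the lone library varies like the other groups.

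Genes that rose under 2-CM turned negative as follows. RPL34 was at −0.11 after the GC correction, RPL35A at −0.0577 with median ratios and −0.28 after the GC correction, and RPL38 at −0.10 with median ratios. RPS13 was at −0.0339 with upper-quartile scaling, −0.25 with median ratios and −0.47 after the GC correction. The cause of these changes was not tested. Summing each member with its named pseudogenes left 5 and 31 calls.

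With the replicate number as a block, 4 members were called under DMSO, 33 under 2-CM and 0 elsewhere, where 2.01% and 51.8% of all genes were called under DMSO and 2-CM. The numbers were not taken to pair the samples, and whether libraries of like number shared a difference was not tested. Of 15 correlations between groups, the 5 with RES poly I:C were below 0 (−0.80 to −0.31) and the other 10 above it (0.15 to 0.76). RES poly I:C thus ran opposite to the other groups, and the block does not allow for that. A shared difference would stay in the spread of the fit without a block and widen its standard errors. Depth was known only through estimated reads, so no counting interval is given, and each group held 2 libraries, which limits every comparison. Levels of members with abundant pseudogenes, or with a leading transcript that differed between replicates, depend on how StringTie assigned shared reads, which was not tested.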
